A study of Homo sapiens with 4 samples.

Results

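The 9 genes described here encode 3 Janus kinases (JAK1, JAK2 and TYK2), 3 STAT transcription factors (STAT2, STAT3 and STAT5A) and 3 suppressors of cytokine signalling (SOCS1, SOCS2 and SOCS3). They were taken by symbol from a table of 24424 gene symbols, and all 9 were found. RNA was sequenced from BEAS-2B in 4 libraries. BEAS-2B is a human cell line of bronchial epithelium, and its genotype is given as wild type. Control cells received no treatment. LPS cells received lipopolysaccharide, the outer membrane glycolipid of gram-negative bacteria, for 2 hr. WT PDZ+LPS and mut PDZ+LPS cells received 24 hr of the wild-type or the mutant PDZ peptide before the same 2 hr of LPS. The peptide carried a cell-entry (TAT) tag and a FITC label and was modelled on the first PDZ domain of the tight junction protein ZO-1, and the mutant had a glycine pair changed to an alanine pair. Each condition had 1 library and no group received peptide without LPS, so a peptide effect apart from LPS was not measured.

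Cytokines bind receptors that lack kinase activity of their own, and the JAK kinases bound to those receptors phosphorylate STAT factors, which then enter the nucleus and activate genes. STAT2 works mainly with IRF9 in the interferon-activated complex ISGF3, STAT3 answers the interleukin-6 family, and STAT5A answers growth hormone, prolactin and several haematopoietic cytokines. SOCS genes are themselves targets of STAT factors and their proteins restrain the JAK kinases and receptors, which closes a feedback loop. LPS signals first through Toll-like receptor 4 and NF-kB, and in airway epithelium it leads to secreted cytokines that in turn use JAK and STAT proteins.

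Values are read counts divided by a size factor per library (normalised counts), and fold changes are on the log2(normalised count + 1) scale. With 1 library per condition there was no replicate error to set a difference against, and no test was possible. The 95% intervals are exact binomial (Clopper-Pearson), compare the counts of 2 libraries, leave out the added count of 1 and cover counting error only. A gene was called higher or lower at a fold of at least 2, where at least 1 of the 2 libraries had 16 or more normalised counts.

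Depth was 19682929 to 25155647 counts per library. Markers of bronchial epithelium summed to 79524 to 102661 normalised counts per library, with 0 of 9 at 0. KRT7, KRT8 and KRT18 had the highest counts of the 9, while EPCAM was at 34.8 to 49.5 and KRT19 at 87.9 to 188. CLDN1 had 913 in Control and 7058 in LPS, so the sum also moved with treatment. Leukocyte markers summed to 732 to 899, with 3 or 4 of 8 at 0, including PTPRC in every library. Fibroblast markers summed to 408 to 552 and endothelial markers to 5.87 to 14.1. The fibroblast marker COL1A1 (288 to 422) and the leukocyte marker CD14 (366 to 523) stood above EPCAM and KRT19 in every library. In these bulk samples fewer cells of a type and less RNA per cell cannot be told apart. The mut PDZ+LPS library also differed by transcript length. Over 12142 genes, Spearman's rho of the log2 fold change with transcript length was -0.60 for mut PDZ+LPS/LPS. It was -0.61 for mut PDZ+LPS/WT PDZ+LPS, but 0.074 for WT PDZ+LPS/LPS. Longer transcripts therefore read lower in that library, and JAK1, JAK2 and STAT3 have long transcripts (5047, 5285 and 5047 nt). Values of the members after removal of the trend with length and GC content are given beside the mut PDZ+LPS values.

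JAK2, STAT5A and SOCS1 stood furthest above Control among the 9 genes, so the 250 bases before a start site of each are shown. They are taken from RefSeq (GRCh38.p14), whereas the submitters' notes name hg19 for the reads and the count files hold no coordinates. RefSeq promoter windows were found for 8 of the 9 genes (16 windows) and were searched on both strands for GAS, the STAT dimer element (TTCNNNGAA), the ISRE core bound by ISGF3 and IRF factors (GAAA, any 2 bases, GAAA), the NF-kB consensus, AP-1 (TGANTCA) and a TATA box (TATAAA). Capitals mark a match, and the 3 windows below overlap no annotated exon.
JAK2, plus strand, chr9:4984140-4984389: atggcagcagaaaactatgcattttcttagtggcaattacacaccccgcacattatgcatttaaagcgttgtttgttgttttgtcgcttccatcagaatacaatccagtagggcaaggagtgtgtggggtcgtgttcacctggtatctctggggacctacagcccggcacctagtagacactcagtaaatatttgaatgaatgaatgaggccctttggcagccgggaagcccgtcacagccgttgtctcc
STAT5A, plus strand, chr17:42287297-42287546: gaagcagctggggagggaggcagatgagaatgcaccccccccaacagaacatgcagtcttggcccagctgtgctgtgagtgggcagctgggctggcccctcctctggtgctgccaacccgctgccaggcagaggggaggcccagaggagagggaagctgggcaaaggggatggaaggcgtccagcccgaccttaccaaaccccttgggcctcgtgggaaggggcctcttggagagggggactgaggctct
SOCS1, minus strand, chr16:11256205-11256454: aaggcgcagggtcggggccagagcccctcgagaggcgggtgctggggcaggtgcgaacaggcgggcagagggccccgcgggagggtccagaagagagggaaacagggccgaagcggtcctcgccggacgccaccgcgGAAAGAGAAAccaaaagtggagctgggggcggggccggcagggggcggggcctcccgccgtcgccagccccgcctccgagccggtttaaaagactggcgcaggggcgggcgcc

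The SOCS1 window held an ISRE core 113 to 104 bases before the start site. A STAT5A window at a later start site, where an exon of STAT5A is annotated, held an NF-kB match 219 to 210 bases before that start, within the 30 bases tgggactcccGGGGGACCCCgccgtcgggg (chr17:42288269-42288298, plus strand). These were the only matches in the 16 windows. For JAK1 and SOCS3, the bases just after the start site of each window lay in no GENCODE 29 transcript of the gene. A SOCS3 window also overlapped an exon of SOCS3. The start sites in use may therefore lie outside these windows, so the lack of a match there does not describe the promoters of JAK1 and SOCS3. Among all 34943 RefSeq windows of this length, 6.56% held a GAS, 3.02% an ISRE core, 5.20% an NF-kB consensus, 6.59% an AP-1 site and 10.8% a TATA box. A match is a description of these letters, and the lack of one in the JAK2 window says only that the letters are not there.

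Per kilobase of transcript, STAT3 was the most abundant of the 9 in every library, at 994 to 1316 normalised counts per kb. In Control it was followed by TYK2 (561), JAK1 (497), STAT2 (436), SOCS3 (400), JAK2 (121), STAT5A (27.5), SOCS2 (3.03) and SOCS1 (0). The intervals of STAT2 and SOCS3 overlapped, as did those of SOCS2 and SOCS1, and the other neighbours were apart. In LPS the order was STAT3, SOCS3 (777), TYK2 (649), JAK1 (584), JAK2 (485), STAT2 (400), STAT5A (112), SOCS1 (6.85) and SOCS2 (4.54), where only the last pair overlapped. SOCS3 thus stood below STAT2 in Control and directly below STAT3 in each LPS-treated library. Its interval overlapped that of STAT3 in mut PDZ+LPS, at 929 and 994 normalised counts per kb. It overlapped that of TYK2 in WT PDZ+LPS, at 637 and 620 per kb. The mut PDZ+LPS values per kb still hold the trend with length, and SOCS3 and STAT3 transcripts differ in length (2734 and 5047 nt). With the length and GC correction, mut PDZ+LPS/LPS went from -0.40 to -0.13 for STAT3 and from 0.26 to 0.087 for SOCS3. The overlap of SOCS3 with STAT3 was not examined after that correction.

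**Figure D1:**
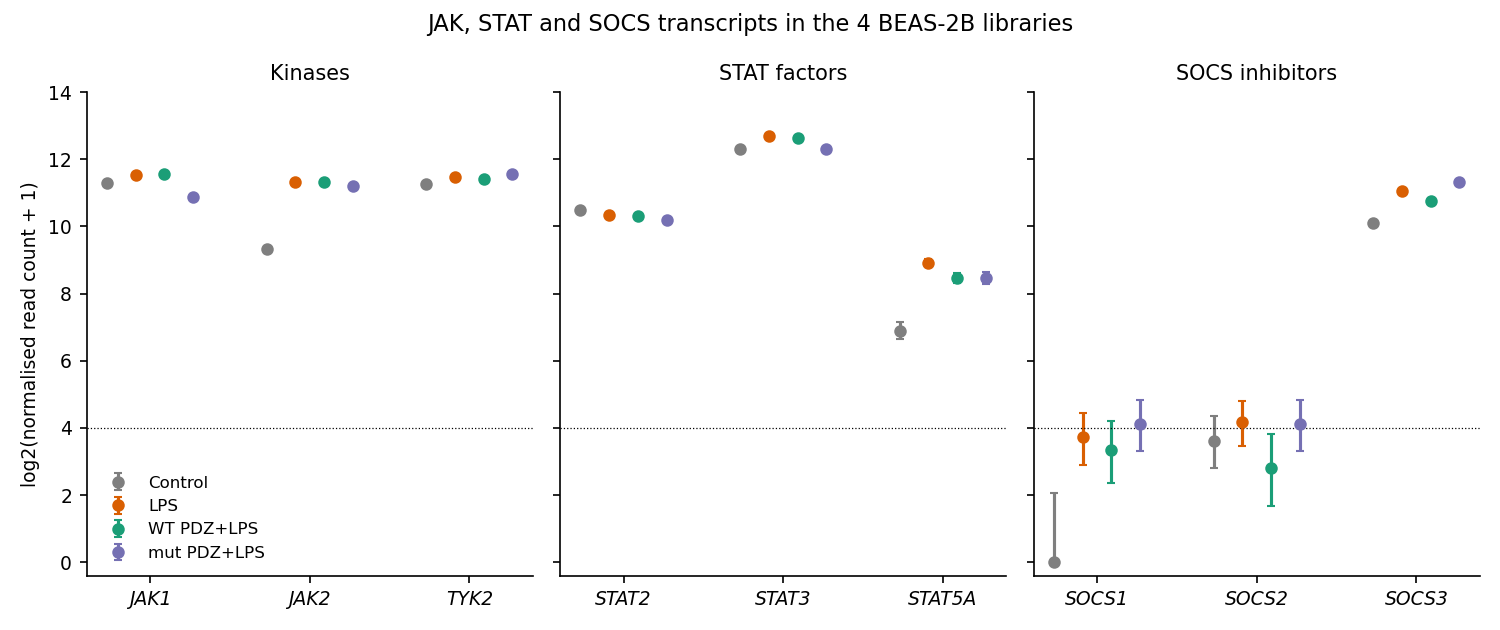
Normalised read counts of the 9 genes in the 4 libraries, as log2(normalised count + 1), in panels for kinases, STAT factors and SOCS inhibitors. Points are single libraries, bars are 95% counting intervals and the dotted line marks 16 normalised counts (4 on the log2 scale). JAK2 and STAT5A sit apart from Control in all 3 LPS-treated libraries, while SOCS1 and SOCS2 lie near or below the dotted line.

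The first comparison asked what LPS did to these genes at 2 hr. JAK2 and STAT5A were about 4-fold higher in LPS than in Control, SOCS3 was 1.94-fold higher, and the other kinases and STAT factors differed by less than 1.5-fold. Of the 9 genes 8 passed the count rule in LPS/Control, and 2 were called higher and 0 lower. Among all 13277 genes tested, 3.46% were called higher and 1.41% lower (460 and 187 genes). With total-count scaling, which lowered the median of all genes by 0.13 on the log2 scale, the split was 388 higher and 274 lower, and JAK1, TYK2 and STAT3 stayed above 0 at 0.10, 0.078 and 0.26. The median log2 fold change of the 7 members with a mean of at least 16 normalised counts was 0.39, against -0.0010 for all 13072 genes with that mean.

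JAK2, the kinase of the interferon gamma, growth hormone and several haematopoietic receptors (chromosome 9), had 639, 2565, 2548 and 2334 normalised counts in the order Control, LPS, WT PDZ+LPS, mut PDZ+LPS, which all series of 4 values below follow. The 3 LPS-treated libraries lay close together and far above Control. The log2 fold change of LPS/Control was 2.00 (interval 1.89 to 2.13), and 170 of the 13277 genes tested were higher. JAK1 (chromosome 1), the partner kinase on most cytokine receptors, had 2511, 2949, 2991 and 1891 normalised counts. Its LPS/Control value was 0.23 (0.16 to 0.31), and the mut PDZ+LPS library was the lowest of the 4. TYK2 (chromosome 19), which serves the type I interferon and interleukin-12 receptors, had 2440.4, 2821, 2697 and 3019 normalised counts and spanned 1.24-fold over the 4 libraries. Its LPS/Control value was 0.21 (0.13 to 0.28).

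STAT5A (chromosome 17) had 118, 483, 354 and 352 normalised counts. It was highest in LPS, and both peptide libraries stood between LPS and Control. The LPS/Control value was 2.02 (1.75 to 2.31), and 167 tested genes were higher. Its paralog STAT5B, a neighbour in sequence with which reads can be shared, had 874, 924, 883 and 831 normalised counts and an LPS/Control value of 0.080 (-0.053 to 0.21). How reads matching both genes were counted is not given in the sources used here, so the STAT5A level is uncertain to that extent.

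STAT3 (chromosome 17) had 5077, 6639, 6297 and 5015 normalised counts, with an LPS/Control value of 0.39 (0.34 to 0.44). As scaled, the Control and mut PDZ+LPS libraries were alike, and LPS and WT PDZ+LPS were higher. The mut PDZ+LPS/Control value went from -0.018 to 0.23 with the length and GC correction. STAT2 (chromosome 12) had 1419, 1304, 1255 and 1163 normalised counts and was lower in LPS by a small margin, at -0.12 (-0.23 to -0.018). Its partner IRF9 had 400.3, 326, 285 and 405 normalised counts, and its LPS/Control value was -0.29 (-0.50 to -0.085).

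SOCS3 (chromosome 17), which binds JAK2 and the interleukin-6 receptor chain gp130, had 1093, 2124, 1742 and 2539 normalised counts. Control was the lowest library and mut PDZ+LPS the highest. LPS/Control was 0.96 (0.86 to 1.06), just under the 2-fold threshold, and 96.3% of tested genes lay lower. SOCS1 (chromosome 16), which blocks JAK catalytic activity directly, had 0, 13, 9 and 14 reads. Taking the 0 reads of Control as a floor of 3, SOCS1 was at least 4.68-fold higher in LPS, at least 3.48-fold higher with the wild-type peptide and at least 6.30-fold higher with the mutant peptide. Only the last gave a call, since the LPS and WT PDZ+LPS libraries were under 16 normalised counts. SOCS2 (chromosome 12), the feedback inhibitor of growth hormone signalling, had 13, 18, 6 and 14 reads. Its LPS/Control value of 0.54 (-0.53 to 1.73) was not distinguishable from 0 at this depth.

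The 2 peptide libraries were also set against Control, which is shared with LPS/Control. In WT PDZ+LPS/Control 7 genes passed the count rule and 2 were called higher, namely JAK2 at 1.99 (1.88 to 2.12) and STAT5A at 1.57 (1.29 to 1.88). Among 13284 genes 3.28% were called higher and 1.42% lower (436 and 189 genes, or 362 and 273 with total-count scaling). In mut PDZ+LPS/Control all 9 passed and 4 were called higher, namely JAK2 at 1.87 (1.75 to 1.99), STAT5A at 1.57 (1.28 to 1.88), SOCS3 at 1.22 (1.11 to 1.32) and SOCS1, given above as a bound. After the length and GC correction JAK2 was at 2.15, STAT5A at 1.64 and SOCS3 at 1.07. SOCS1 passed the count rule only through mut PDZ+LPS, at 16.4 normalised counts from 14 reads against 0 in Control. The 13 reads of SOCS1 in LPS fell short of the rule, so this call carries little weight. Among 13434 genes 5.13% were called higher and 2.96% lower (689 and 398 genes, or 608 and 567 with total-count scaling). No member was called lower in either comparison. STAT3 in mut PDZ+LPS/Control was -0.018 (-0.075 to 0.040) and turned to 0.23 with the length and GC correction, and JAK1 went from -0.41 to -0.13. TYK2 went from 0.31 to 0.29, STAT2 from -0.29 to -0.20 and SOCS2 from 0.50 to 0.68.

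The rest of the pathway was read from lists of genes by role. Other kinases, STAT factors and regulators were nearly level in LPS/Control: of 23 listed genes, all of which passed the count rule, 0 were called and the median log2 fold change was 0.080. Among 40 receptor chains, 24 passed and 4 were called higher. IL7R, the interleukin-7 receptor, had 30.5 normalised counts in Control and 377 in LPS (3.59, interval 3.13 to 4.17). IFNGR1 and IFNGR2, the chains of the interferon gamma receptor that carry JAK1 and JAK2, were at 1.30 (1.22 to 1.39) and 1.13 (1.04 to 1.22). IFNAR2, a chain of the type I interferon receptor, was at 1.04 (0.90 to 1.18).

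Among ligands of the pathway, 37 were listed, 11 passed the count rule, 7 were called higher and 0 lower. The median log2 fold change was 3.81 over the 11 with a mean of at least 16 normalised counts, but 0.27 over all 37, and some, such as CSF2 and CNTF, reached that mean only through the LPS-treated libraries where they were high. IL6, whose receptor signals through JAK1 and STAT3, had 353 normalised counts in Control and 10089 in LPS (4.84, interval 4.70 to 4.99). LIF, of the same family, had 604 and 10016 (4.05, 3.94 to 4.16), and CSF3, the granulocyte colony-stimulating factor, had 278 and 12041 (5.43, 5.28 to 5.60). CSF2, which acts through JAK2 and STAT5, had 1 read in Control and 274 in LPS, and the interval of their log2 ratio was 5.72 to 13.52. CNTF had 51 reads in LPS against 0 in Control, a fold of at least 18.4, but a read-through transcript that contains it makes this count uncertain.

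Of 25 listed STAT3 and STAT5 targets 23 passed, 8 were called higher and 1 lower, with a median of 0.57. The 5 largest were the transcription factor genes TWIST1 (2.22, interval 2.09 to 2.35) and CEBPD (2.12, 2.05 to 2.20), the acute-phase genes LCN2 (2.07, 1.72 to 2.45) and SERPINA3 (1.92, 1.78 to 2.07), and the kinase gene PIM1 (1.85, 1.61 to 2.11). Several of them are NF-kB targets too. The target called lower was the fibrinogen gene FGB, with 79.2 normalised counts in Control and 26.3 in LPS. Of 28 listed ISGF3 targets 25 passed, 6 were called higher and 0 lower, with a median of 0.19 (0.21 over all 28). The 5 largest were IRF1 (3.62, 3.54 to 3.71), CXCL10 (3 reads in Control and 39 in LPS, interval of the log2 ratio 2.16 to 6.15), GBP2 (2.55, 2.23 to 2.93), GBP1 (1.56, 1.46 to 1.67) and DDX58 (1.36).

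**Figure D2:**
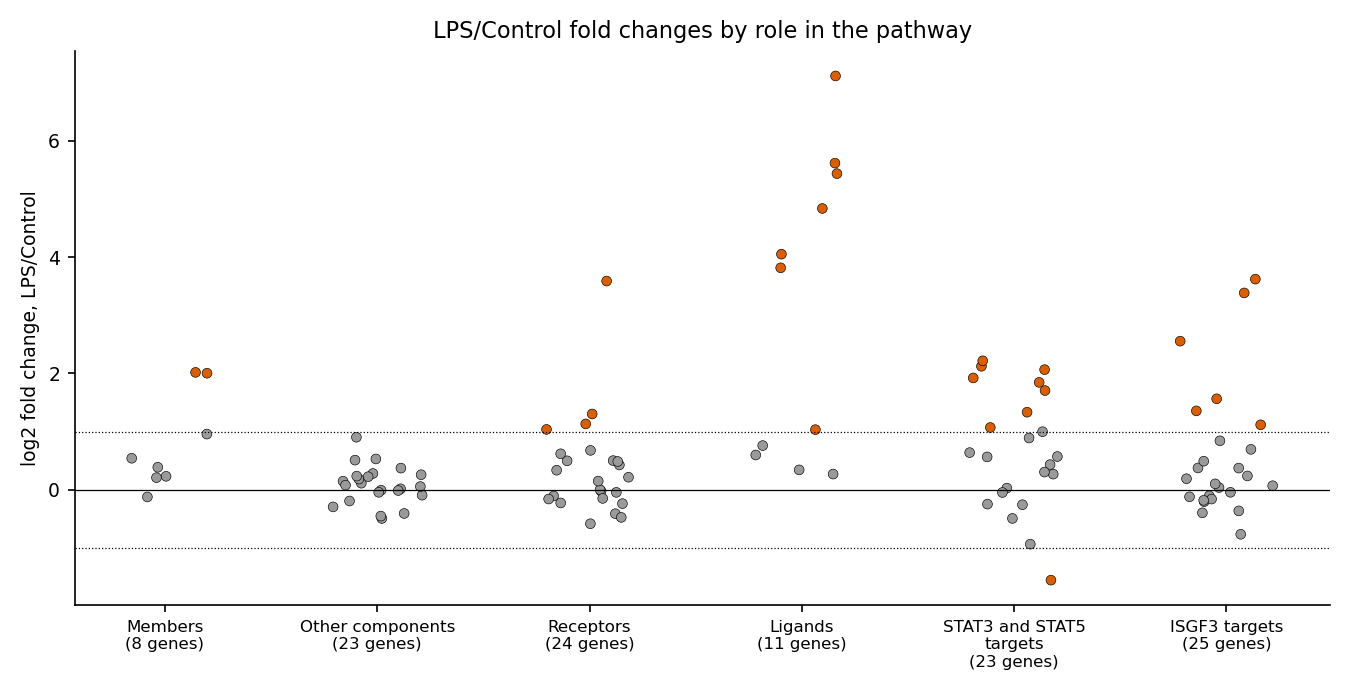
Log2 fold changes of LPS/Control for the genes of each list that passed the count rule, with the number of genes under each list. Each point is 1 gene, spread sideways only for legibility, orange points are called and dotted lines mark 2-fold. JAK2 and STAT5A stand near 2 while the 23 other components stay between the lines, and 7 of 11 ligands lie above them.

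The next comparison asked whether the wild-type peptide changed the LPS response of these genes. In WT PDZ+LPS/LPS 5 members lay within 0.08 of 0 on the log2 scale, while STAT5A and SOCS3 were lower by larger amounts that exceeded counting error. The sparse SOCS1 and SOCS2 are given further below. The 5 were JAK1 at 0.020 (-0.053 to 0.093), JAK2 at -0.0099 (-0.089 to 0.069), TYK2 at -0.065 (-0.14 to 0.011), STAT2 at -0.055 (-0.17 to 0.057) and STAT3 at -0.076 (-0.13 to -0.027), of which only the STAT3 interval left out 0. STAT5A was at -0.44 (-0.65 to -0.25), where 3.59% of the 13236 genes tested lay lower. SOCS3 was at -0.29 (-0.38 to -0.20), with 6.78% of tested genes lower.

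Of the 8 members that passed the count rule in WT PDZ+LPS/LPS, 0 were called higher and 1 lower. Among all tested genes 0.635% were called higher and 0.733% lower. The gene called lower was SOCS2, at -1.35 (-3.10 to -0.088) from 6 against 18 reads, and the call was lost with a pseudocount of 5. SOCS2 passed the count rule only through the LPS library, at 16.9 normalised counts against 6.06, so the call carries little weight. SOCS1, with 9 against 13 reads, was at -0.39 (-1.83 to 0.91), so neither a fall nor a rise was detectable. The median of the 7 members was -0.065, against 0.0075 for all genes.

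In mut PDZ+LPS/LPS all 9 members passed and 0 were called. Among 13378 genes 2.05% were called higher and 1.9% lower. JAK1 was lowest, at -0.64 (-0.73 to -0.55), and was at -0.33 after the length and GC correction. STAT3 was at -0.40 (-0.46 to -0.35) and at -0.13 after it. STAT5A was at -0.45 (-0.66 to -0.24), a value close to that of the wild-type peptide, and at -0.36 after correction. Of tested genes 15.8% lay lower than STAT5A here, against 3.59% with the wild-type peptide. JAK2, at -0.14 (-0.22 to -0.053), turned to 0.16 after correction, so its direction depended on that correction.

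STAT2 in mut PDZ+LPS/LPS was at -0.16 (-0.28 to -0.046) and at -0.090 after correction, and TYK2 was at 0.098 (0.021 to 0.17) and 0.10 after it. SOCS3 was higher, at 0.26 (0.17 to 0.34), with 73.5% of tested genes lower, and at 0.087 after correction. SOCS1 at 0.40 (-0.77 to 1.64) and SOCS2 at -0.039 (-1.16 to 1.05) had intervals on both sides of 0, and the correction turned both directions, to -0.21 and 0.14. The median of the 7 members was -0.16 and -0.090 after correction, against -0.023 and -0.0038 for all genes.

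The peptides differ by the glycine-to-alanine change, and mut PDZ+LPS/WT PDZ+LPS compares them at the same times, 24 hr of peptide and 2 hr of LPS. All 9 members passed, 1 was called higher and 0 lower. Among 13372 genes 2.12% were called higher and 2.14% lower. The gene called was SOCS2, with 14 against 6 reads, at 1.31 (-0.029 to 3.11), an interval that holds 0, and at 1.48 after the length and GC correction. SOCS2 passed the count rule only through mut PDZ+LPS, at 16.4 normalised counts against 6.06. SOCS3 was higher with the mutant peptide, at 0.54 (0.45 to 0.64), and at 0.36 after correction. SOCS1, with 14 against 9 reads, was at 0.79 (-0.45 to 2.25) and at 0.18 after correction.

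Among kinases and STAT factors, JAK1 was lower with the mutant peptide, at -0.66 (-0.75 to -0.57), and at -0.35 after correction. STAT3 was at -0.33 (-0.38 to -0.27) and at -0.052 after correction, and JAK2 was at -0.13 (-0.21 to -0.041) and turned to 0.20. TYK2 was at 0.16 (0.084 to 0.24) and 0.17 after it. STAT5A was at -0.0079 (-0.24 to 0.22) and STAT2 at -0.11 (-0.23 to 0.012), so counting error alone covers a difference of 0 for both. After correction they were at 0.076 and -0.047. The median of the 7 members was -0.11, and 0.076 after correction.

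**Figure D3:**
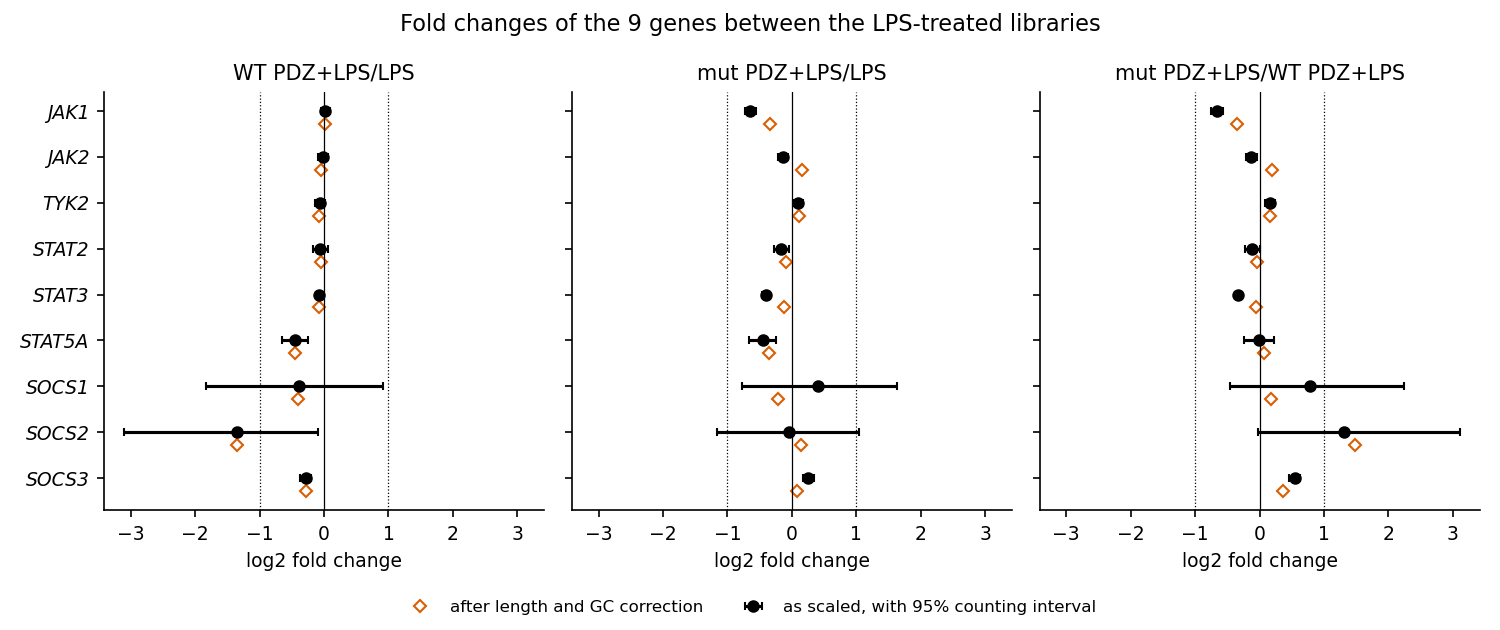
Log2 fold changes of the 9 genes in the 3 comparisons between LPS-treated libraries. Black points with bars are the values with 95% counting intervals, open diamonds are the values after the length and GC correction, and dotted lines mark 2-fold. STAT5A and SOCS3 lie left of 0 in WT PDZ+LPS/LPS, and the diamonds of JAK1, JAK2 and STAT3 lie to the right of their points in both mut PDZ+LPS panels.

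Few listed genes outside the members passed 2-fold between the LPS-treated libraries. In WT PDZ+LPS/LPS 3 of 12 ligands were called lower. EBI3, a subunit of interleukins 27 and 35, had 79 reads in LPS and 27 in WT PDZ+LPS (-1.41, interval -2.13 to -0.80). CNTF had 51 and 19 reads (-1.28, -2.17 to -0.54) and IL7 27 and 12 (-1.01, -2.18 to -0.039). CXCL10, with 39 and 16 reads, was the 1 ISGF3 target called (-1.14, -2.12 to -0.31), and 0 of 23 STAT3 and STAT5 targets, 0 of 24 receptors and 0 of 23 other components were called.

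In mut PDZ+LPS/LPS the ligand IL11 was called higher, with 18 against 4 reads (2.22, 0.89 to 4.51), and so was the fibrinogen gene FGB, with 47 against 28 reads (1.04, 0.36 to 1.80). FGB in mut PDZ+LPS still stood below Control, at 55.2 against 79.2 normalised counts. In mut PDZ+LPS/WT PDZ+LPS IL11 (18 against 4 reads, 2.14, 0.79 to 4.41) and IL7 (28 against 12, 1.37, 0.42 to 2.55) were called higher and the growth hormone receptor GHR (16 against 43 reads, -1.17, -2.14 to -0.35) lower. All of these rested on fewer than 100 reads per library. IL11 and IL7 passed the count rule only through the library where they were higher, and so did IL7 in WT PDZ+LPS/LPS. IL11 had 3.76 normalised counts in LPS and 4.04 in WT PDZ+LPS, and IL7 had 12.1 in WT PDZ+LPS. After the length and GC correction FGB was at 0.92 and GHR at -0.87, both short of 2-fold, while IL11 was at 2.07 and 1.96 and IL7 at 1.27. The STAT3 and STAT5 targets had a median of 0.43 in this comparison, and 0.15 after the length and GC correction.

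The genes whose profiles over the 4 libraries were nearest to each member were sought among genes with a mean of at least 16 normalised counts, by the distance between log2 values centred on their own mean. This was done for the 5 members that spanned at least 2-fold. JAK2 was nearest to STEAP2 (distance 0.055), NOCT (0.060) and SLC16A6 (0.089). STEAP2, a metalloreductase gene, had 430 normalised counts in Control and 1513 to 1675 in the LPS-treated libraries. STAT5A was nearest to TRIB1 (0.15), and SGK1 (0.21) was also among its 3 nearest genes, and both were likewise highest in LPS. TRIB1, which encodes a pseudokinase, had 380.3, 1438, 1230 and 1141 normalised counts.

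SOCS3 was nearest to TFPI2 (0.057), PLAUR (0.11) and DLL1 (0.11). TFPI2, a protease inhibitor gene, had 402, 819, 659 and 982 normalised counts, with the same order of libraries as SOCS3. For the sparse genes the match rests on few reads. SOCS1 was nearest to ADM (0.14), NR4A2 (0.25) and CXCL2 (0.29), and SOCS2 to NLRC3 (0.14), NR1I3 (0.17) and TNNT2 (0.22). Profiles over 4 libraries, searched among 13072 genes, are a description of these libraries.

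**Figure D4:**
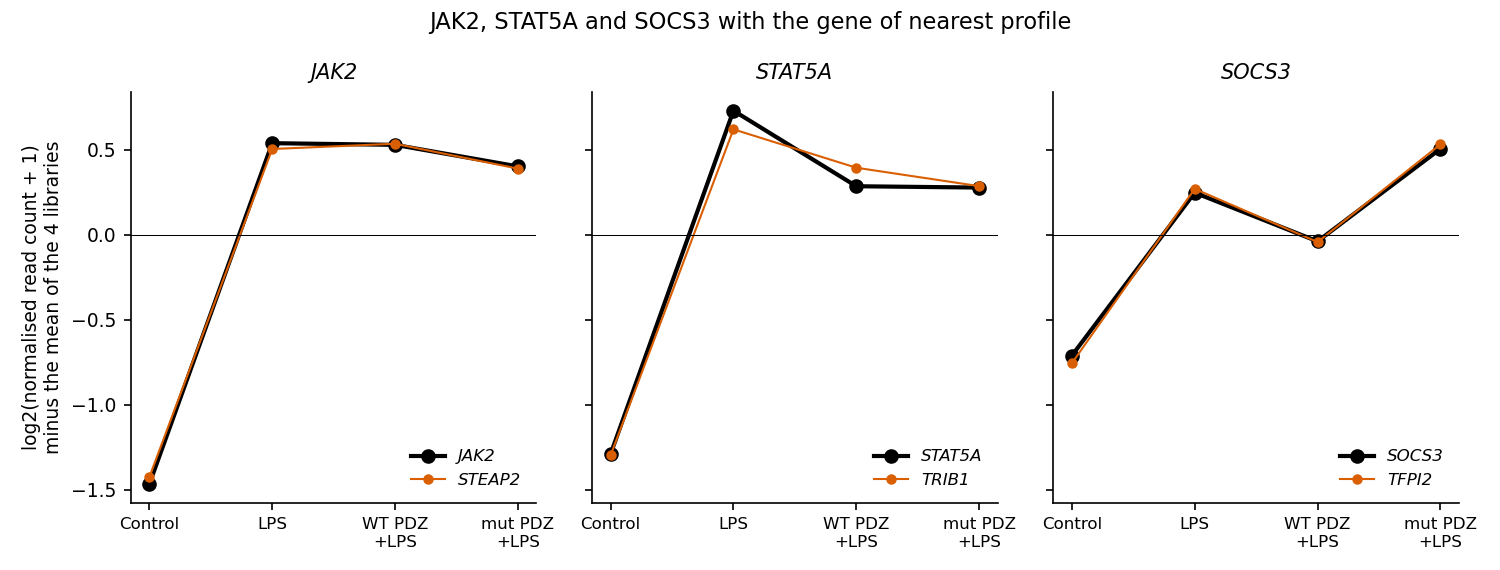
Profiles of JAK2, STAT5A and SOCS3 and of the gene nearest to each over the 4 libraries, as log2(normalised count + 1) minus the mean of the 4 libraries. Black lines are the members and orange lines STEAP2, TRIB1 and TFPI2. JAK2 and its neighbour are flat across the LPS-treated libraries, STAT5A peaks in LPS, and SOCS3 dips in WT PDZ+LPS and is highest in mut PDZ+LPS.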

How the data were processed

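Poly(A)-selected, strand-marked libraries were sequenced in pairs of reads. The authors trimmed and quality-filtered the reads and mapped them with TopHat, and hg19 is the build in the submitters' processing notes. The deposited values are raw read counts per gene symbol, 1 library per condition, with no normalization. The counting tool, the annotation and the use of strand are not given in the sources used here. The groups came from the treatment labels.

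The counts were divided by median-of-ratios size factors (1.15 for Control, 1.06 for LPS, 0.990 for WT PDZ+LPS, 0.851 for mut PDZ+LPS, checked against DESeq2 1.42.0), and 1 was added before log2. All 6 pairs of libraries were compared over all genes. A call needed 2-fold and 16 normalised counts in either library, and list medians were taken over genes whose mean reached 16 (13072 genes). Counting intervals were Clopper-Pearson at 95%. The reads carried no molecular identifiers, so intervals and floors of 3 counts cover counting error only. To correct for length and GC content, lowess trends (span 0.3) were taken out over the longest protein-coding transcript of GENCODE 29, first by length and then by GC content, fitted on 12142 genes. The alternatives were TMM (edgeR 4.0.16) and total-count scaling, a pseudocount of 5, no count rule, folds of 1.5 and 3, that correction, and list medians over every listed gene. The steps were tested on simulated data. Python 3.11.15, with statsmodels 0.14.6, scipy 1.17.1, matplotlib 3.10.9, pandas 2.3.3 and numpy 2.4.6, was used.

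The 9 members, the gene lists and the tests were chosen with earlier results of these data known. Beyond the members, the genes named are the called genes of each list in LPS/Control (the 5 largest changes where there were more), those called between LPS-treated libraries (the 3 largest), STAT5B and IRF9. The genes alike are the 3 nearest by Euclidean distance, 1 of which is not reported here.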

Additional observations from a re-analysis of the deposited data

Results flagged for a closer look

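SOCS3 moved in opposite directions with the peptides. Its log2 fold change against LPS was -0.29 with the wild-type peptide, from 1742 against 2124 normalised counts. It was 0.26 with the mutant peptide, from 2539 normalised counts. Of the genes tested, 6.78% lay lower than the wild-type value and 73.5% lower than the mutant value. The difference was not tested, because each condition had 1 library. The mut PDZ+LPS value was 0.087 after the length and GC correction and the WT PDZ+LPS value -0.28.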

How the results depend on the processing

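The calls of JAK2 and STAT5A against Control were kept under TMM and total-count scaling, a pseudocount of 5, no count rule, a fold of 1.5 and the length and GC correction. At a fold of 3 STAT5A lost its call against Control with both peptides, at 2.98-fold for the wild-type and 2.96-fold for the mutant peptide. The members called higher were then 1 for the wild-type peptide (JAK2) and 2 for the mutant (JAK2 and the sparse SOCS1). Among all genes tested, 227 of 13284 and 322 of 13434 were called higher at that fold. Without the count rule SOCS1 was added in LPS/Control and in WT PDZ+LPS/Control, with 3 members called in each. Both SOCS2 calls were lost with a pseudocount of 5 and at a fold of 3, which left 0 members called lower in WT PDZ+LPS/LPS and 0 higher in mut PDZ+LPS/WT PDZ+LPS. At a fold of 1.5, 1 of 9 members (JAK1) was called lower in mut PDZ+LPS/LPS. In mut PDZ+LPS/WT PDZ+LPS 2 were called higher (SOCS1 and SOCS2) and 1 lower (JAK1). The intervals of SOCS1 and SOCS2 held 0 there. JAK1 was short of 1.5-fold in both comparisons after the length and GC correction, at log2 values of -0.33 and -0.35. Among all genes, 1311 of 13378 were lower in the first comparison at that fold. In the second, 1123 were higher and 1433 lower of 13372. Total-count scaling moved the median of all genes by -0.13, -0.12 and -0.12 in the 3 comparisons with Control. The limits are the single library per condition and, for SOCS1 and SOCS2, at most 18 reads per library. Over all listed symbols instead of those with a mean of at least 16 normalised counts, the ligand median went from 3.81 to 0.27 for LPS, from 2.40 to 0 for the wild-type and from 3.33 to 0.066 for the mutant peptide, each against Control, and from 0.47 to 0 between the peptides. No paired analysis was possible because each group had 1 library.

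Counts over all genes moved without the count rule, where many sparse genes enter, and at other folds. Without the rule they were 1176 higher and 969 lower for LPS, 1626 and 975 for the wild-type peptide and 2010 and 1113 for the mutant peptide, each against Control. Against LPS they were 1322 and 784 for the wild-type and 1580 and 855 for the mutant peptide, and 1648 and 1409 for the mutant against the wild-type peptide. In the same order, a fold of 1.5 gave 891 higher and 633 lower, 875 and 612, 1562 and 1613, 284 and 286, 1056 and 1311, and 1123 and 1433. The genes tested at each fold were 13277, 13284, 13434, 13236, 13378 and 13372 in that order. A fold of 3 gave 243 and 45, 227 and 51, 322 and 77, 24 and 26, 72 and 50, and 84 and 55. A pseudocount of 5 left 123 lower for LPS and 125 lower for the wild-type peptide against Control. Against LPS it left 38 higher and 59 lower for the wild-type peptide, with 174 higher for the mutant. The length and GC correction left 223 lower for the mutant peptide against Control, 154 higher and 119 lower against LPS, with 155 higher and 109 lower against the wild-type peptide.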

Other observations

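Against Control, the mut PDZ+LPS library had listed genes called that no comparison above names. Of these, 3 (PIAS1, LIFR and CEBPB) are described here, picked after their values were seen, so they are not the full set. Others include MUC1 (470 normalised counts in Control and 972 in mut PDZ+LPS) and CLCF1 (198 and 533). PIAS1, an inhibitor of activated STAT factors, had 1291, 944, 962 and 613 normalised counts in the order used above, and was the 1 of 23 other components called, at -1.07 (interval -1.22 to -0.93). LIFR, the LIF receptor chain, had 2294, 1961, 1988 and 999 normalised counts and was called lower at -1.20 (-1.31 to -1.09). CEBPB, a transcription factor gene among the STAT3 targets, was called higher at 1.24 (1.20 to 1.29), from 4432 normalised counts in Control and 10506 in mut PDZ+LPS. After the length and GC correction none of these 3 reached 2-fold, with PIAS1 at -0.64, LIFR at -0.77 and CEBPB at 0.78. SOCS2-AS1, the antisense neighbour of SOCS2, had 1, 2, 0 and 0 reads, too few for a fold.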
